A study of Mus musculus with 2 samples.

Results

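Smooth muscle contraction genes encode the filaments, the motor, the switch kinase and the hormone receptor with which a cell shortens. Described here are 8 such genes, Acta2, Actg2, Tagln, Cnn1, Tpm2, Myh11, Mylk and Oxtr, of the 32285 genes counted. They were chosen by name for their role in contraction, and all 8 had UMIs in both libraries. The data are 10x Genomics single cell RNA libraries from the mammary glands of adult female mice, 1 made from control mice (Ctrl) and 1 after dosing with clodronate liposomes (CL), vesicles whose drug kills the phagocytes that engulf them. The labels give an age of 9 to 10 weeks for both groups and the protocol 8 to 10 weeks, and the study used wild-type mice, so no allele or transgene separates the groups. The CL animals had received repeated intraperitoneal injections before the glands were taken, and the labels call the CL source macrophage-depleted. Glands were digested for 2 h and then for 5 min in trypsin, and flow sorting took CD45+ immune cells together with CD31-TER119- cells, a gate that leaves out endothelium and red cells. How many animals went into each library is not given in the sources used here. With 1 library per group there is no replicate check, no test was made, and all intervals are exact 95% intervals that cover counting error only.

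The mammary duct and alveolus have an inner luminal layer that makes milk and an outer basal layer of myoepithelial cells. Myoepithelial cells are epithelial cells that carry a smooth muscle apparatus: oxytocin from the pituitary binds its receptor on them, calcium rises, myosin light chain kinase switches on myosin, and the cell squeezes milk towards the nipple. Pericytes and vascular smooth muscle cells, which wrap small vessels, use much the same apparatus to set vessel width, with other receptors in front of it.

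Transcripts were counted by unique molecular identifiers (UMIs), which mark each captured molecule once. There were 118743318 in the library labelled Ctrl and 155765480 in that labelled CL, and 5844 and 8636 cells were retained. Levels are given as CPM, the UMIs of a gene in all cells of a class, divided by all UMIs of that class and brought to the usual scale of CPM. Reads come from the 3′ ends of transcripts, so that levels are compared between cells and libraries and not between genes. Cell classes were named from markers that include none of the contraction genes, and these genes were also kept out of the clustering. The labels were checked against the macrophages: summed over 12 macrophage markers, all retained cells held 114 CPM in the library labelled Ctrl and 264 CPM in the library labelled CL, so this sum was not lower in CL. Much of the gap lay in Lyz2, at 7.57 and 139 CPM outside macrophage-like cells, the largest rise of the 12 there. Within macrophage-like cells Pf4 (701 and 179 CPM) and Mrc1 (168 and 18.5 CPM) were lower in CL, while C1qa (3907 and 4797 CPM) was higher. Neutrophil markers moved with the sum, at 19.3 and 117 CPM over 7 genes, and their part in the sum was not tested. Cells that could be named macrophage-like numbered 41 in each library, 0.702% and 0.475% of cells, while unnamed cells held 8.50% and 59.8% of the macrophage-marker UMIs. Of the unnamed cells, 1 cluster (18 Ctrl and 209 CL cells) was led by Lyz2 and S100a8. The groups are called by their labels throughout. The candidate cells of both libraries shared 22 barcode columns, of which 1 held a retained basal-like or pericyte-like cell.

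Basal-like cells numbered 405 in the library labelled Ctrl (6.93% of cells, 6.29 to 7.61%) and 442 in the library labelled CL (5.12%, 4.66 to 5.60%), with median depths of 8027 and 5816 UMIs per cell. Their 9 defining markers, keratins 5 and 14 among them, summed to 11783 and 10985 CPM. Pericyte-like cells numbered 47 and 53, with medians of 6795 and 5795 UMIs. Their 12 defining markers summed to 3249 and 2889 CPM, and the basal markers in them to 51.3 and 73.9 CPM. The 12 did not move as one between the libraries. Lower in CL were Rgs5 (519 and 86.2 CPM), Abcc9 (67.3 and 6.16 CPM) and Kcnj8 (44.9 and 9.24 CPM), among others. Higher in CL were Ndufa4l2 (333 and 598 CPM) and Cox4i2 (109 and 163 CPM), among others. The pericyte-like class also held fibroblast markers (2031 and 613 CPM over 10 genes) and Schwann cell markers (442 and 1663 CPM over 6 genes), so it is not of a single kind.

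The 8 genes lie at separate places in the mouse genome (GRCm38, GENCODE M21 gene spans). Acta2 (ENSMUSG00000035783, chr19:34241090-34255590, minus strand) encodes smooth muscle alpha-actin, the thin filament itself. Actg2 (ENSMUSG00000059430, chr6:83512905-83536265, minus strand) encodes the gamma form of smooth muscle actin. Tagln (ENSMUSG00000032085, chr9:45929619-45936058, minus strand) encodes transgelin or SM22, which cross-links actin. Cnn1 (ENSMUSG00000001349, chr9:22099216-22109630, plus strand) encodes calponin, a brake on the actin-activated motor. Tpm2 (ENSMUSG00000028464, chr4:43514711-43523765, minus strand) encodes beta-tropomyosin, which lies along the actin groove. Myh11 (ENSMUSG00000018830, chr16:14194535-14291372, minus strand) encodes the smooth muscle myosin heavy chain. Mylk (ENSMUSG00000022836, chr16:34745210-35002420, plus strand) encodes the kinase that switches that motor on. Oxtr (ENSMUSG00000049112, chr6:112473683-112489943, minus strand) encodes the oxytocin receptor.

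Promoters were read because smooth muscle genes are classically driven through the CArG box, the element bound by serum response factor with myocardin. RefSeq promoters of GRCm38.p6, 250 bases before to 50 bases after a gene's start, were at hand for 5 of the 8 genes (Acta2, Cnn1, Mylk, Tpm2 and Oxtr). The promoters of 3 are shown, because Acta2 was high in both contractile classes, Cnn1 was higher in basal-like cells, and Oxtr was found in basal-like but not in pericyte-like cells. All are written 5′ to 3′ on the gene's own strand. Capitals mark CArG boxes with 1 other base in the core.
Acta2 promoter, chr19:34255324-34255623, minus strand: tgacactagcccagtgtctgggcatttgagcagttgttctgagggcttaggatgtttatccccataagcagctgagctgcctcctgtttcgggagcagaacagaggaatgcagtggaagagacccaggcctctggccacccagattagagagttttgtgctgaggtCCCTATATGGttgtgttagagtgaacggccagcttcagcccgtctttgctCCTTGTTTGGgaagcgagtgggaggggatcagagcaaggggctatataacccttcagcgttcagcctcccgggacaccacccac
Cnn1 promoter, chr9:22099003-22099302, plus strand: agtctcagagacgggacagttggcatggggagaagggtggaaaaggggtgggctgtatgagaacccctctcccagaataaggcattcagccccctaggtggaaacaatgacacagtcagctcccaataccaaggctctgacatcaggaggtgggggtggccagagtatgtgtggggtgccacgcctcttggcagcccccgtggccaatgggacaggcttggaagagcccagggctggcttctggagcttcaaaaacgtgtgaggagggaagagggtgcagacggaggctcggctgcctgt
Oxtr promoter, chr6:112489776-112490075, minus strand: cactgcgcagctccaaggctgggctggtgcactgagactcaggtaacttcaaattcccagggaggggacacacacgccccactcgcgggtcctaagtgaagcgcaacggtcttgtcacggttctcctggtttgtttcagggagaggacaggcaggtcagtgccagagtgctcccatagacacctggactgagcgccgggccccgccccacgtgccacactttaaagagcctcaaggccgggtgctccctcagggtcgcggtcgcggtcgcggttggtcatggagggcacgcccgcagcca

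The Acta2 promoter held 2 CArG boxes with 1 other core base, at bases -84 to -75 (CCCTATATGG) and -34 to -25 (CCTTGTTTGG) from the start. Neither overlaps the other motifs searched. Such a near match occurs in 8.50% of the 32851 promoters of the table, and none of the other 4 held one. A CArG box without a changed base was in 0 of the 5, against 1.63% of all promoters. The muscle MCAT box (CATTCC, both strands) was in Acta2 and Mylk, against 14.7% of all promoters. The E-box (CANNTG) was in Tpm2, Oxtr, Cnn1 and Acta2, against 72.3%. The TATA box in the exact form TATAAA (both strands) was in none, against 13.6%. Variant forms were not searched, and the Acta2 promoter above holds the stretch tatataa. The promoters also differed in base composition: G and C made up 70.3% of Tpm2, 63.7% of Oxtr, 59.3% of Cnn1, 54.7% of Acta2 and 53.3% of Mylk, with a median of 52.7% over the table. These matches describe the letters of a short window and were not tested for function. The starts used by all 5 entries lie inside their GENCODE gene spans. That of Mylk lies far inside, with a window from chr16:34784700 and a span from 34745210. Since 3′ reads could in principle be split between related actins, the ends of their transcripts were compared. Over the last 300 bases, Acta2 was 47.0% identical to Actg2 and at most 50.1% identical to any of the 5 other actins compared, so these ends are far from copies of each other.

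The transcripts of the 8 genes sat in a small part of the cells. Basal-like cells, 6.93% and 5.12% of all cells, carried 84.3% of the 8 genes' UMIs in the library labelled Ctrl (84.0 to 84.5%) and 78.0% in the library labelled CL (77.7 to 78.3%). Pericyte-like cells, 0.804% and 0.614% of cells, carried 9.33% and 12.5%. Luminal cells of both lineages, the bulk of each library, carried 2.61% and 2.86% in Ctrl and 3.09% and 4.67% in CL. These shares move with how many cells of each class were recovered as well as with their RNA.

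Summed over the 8 genes, basal-like cells held 17070 CPM in the library labelled Ctrl and 18220 CPM in CL. Pericyte-like cells held 22661 and 26585 CPM. All other classes lay far below. Endothelial-like cells held 333 and 319 CPM, macrophage-like cells 650 CPM in Ctrl and 24.7 CPM in CL, fibroblast-like cells 119 and 113 CPM, and luminal-like cells 56.1 and 57.9 CPM. The gap between basal-like and luminal-like cells was 304-fold in Ctrl (295 to 314) and 315-fold in CL. For single genes the same gap ran from 220-fold for Oxtr to 553-fold for Myh11 in Ctrl. In CL it ran from 122-fold for Oxtr (93.0 to 161) to 521-fold for Actg2. Empty droplets of 100 to 300 UMIs, which hold free RNA, contained 1274 and 1415 CPM of the 8 genes, so luminal-like cells stood at 4.40% and 4.09% of the level of free RNA. The share was not the same for every gene and class: in fibroblast-like cells Mylk stood at 44.2% and 44.1% of its level in empty droplets, against 3.57% and 3.44% in luminal-like cells.

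**Figure D1:**
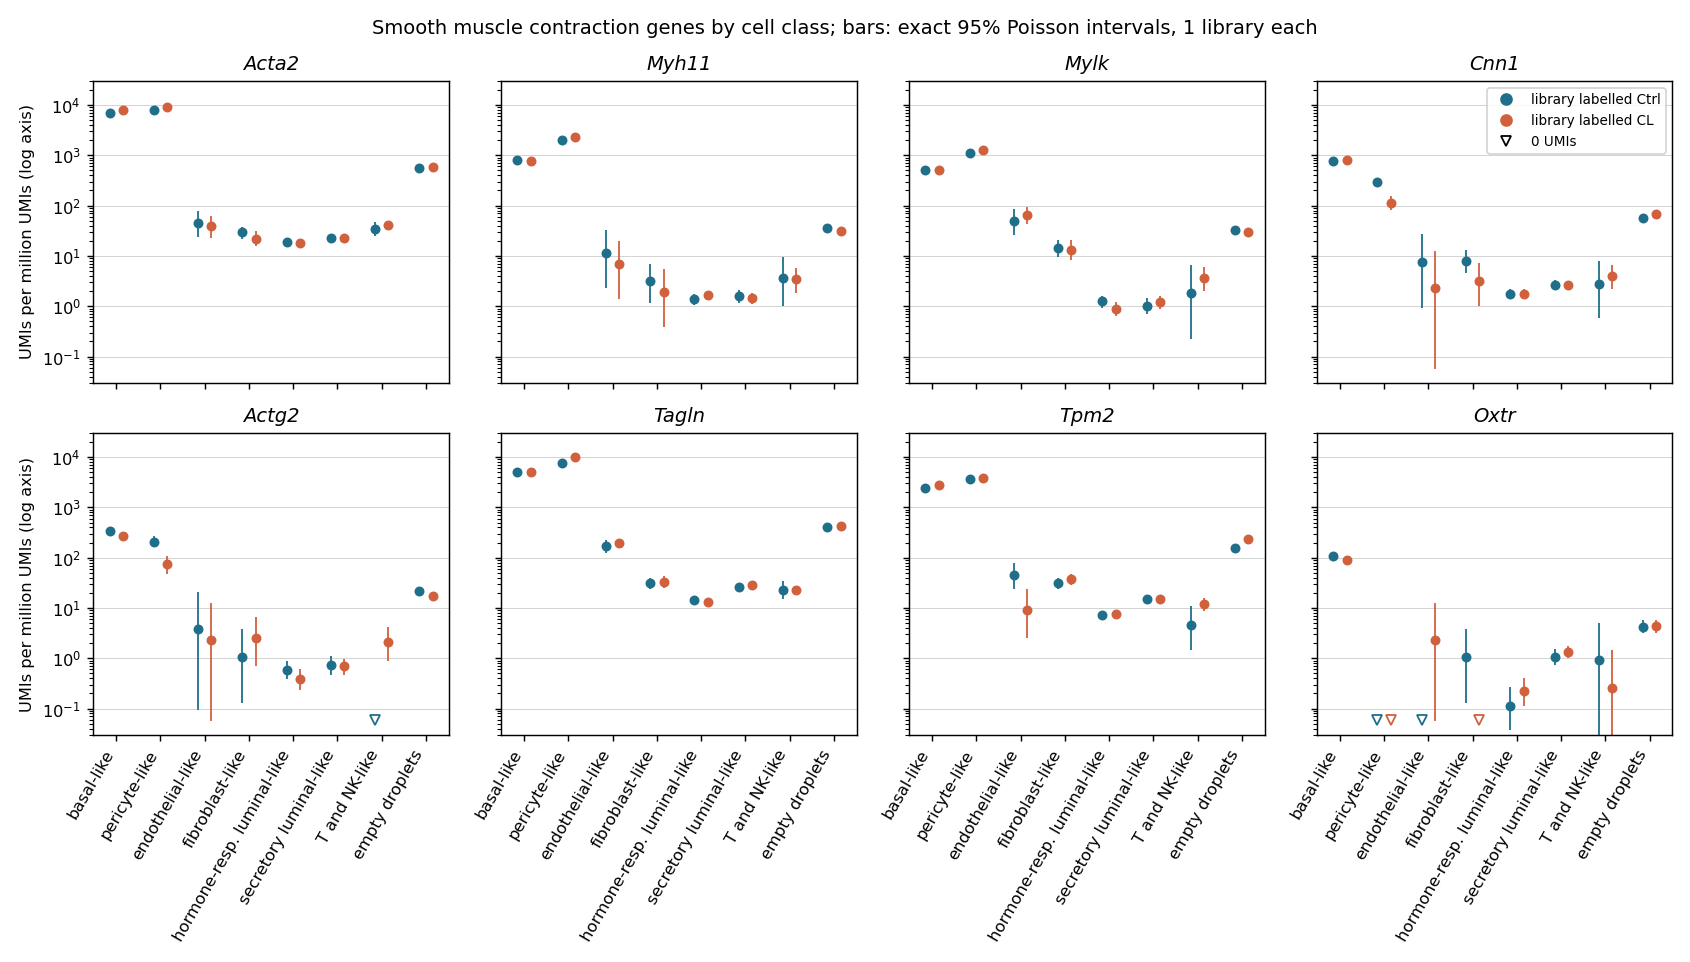
Level of each of the 8 genes in CPM (logarithmic axis) in 7 cell classes and in empty droplets, with exact 95% Poisson intervals, for the libraries labelled Ctrl (blue) and CL (orange). Basal-like and pericyte-like cells stand above the empty droplets for every gene except Oxtr, which has 0 UMIs in pericyte-like cells (open triangles).

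Among the endothelial-like cells (52 and 58), which the CD31 gate should have removed, Tagln reached 170 and 194 CPM, or 42.3% and 45.0% of its level in empty droplets. Mylk reached 49.2 CPM (26.2 to 84.1, 13 UMIs) and 63.8 CPM (42.4 to 92.3, 28 UMIs), or 151% and 212% of its level in empty droplets.

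Among the thin filament genes, Acta2, Tagln and Tpm2 were found in most basal-like cells, and Actg2 in fewer. Acta2 stood at 7026 CPM in the library labelled Ctrl (6942 to 7112) and 7880 CPM in CL (7780 to 7982). Its UMIs per basal-like cell ran from 0 to 785 around a median of 39 in Ctrl and from 0 to 699 around 27 in CL. Nearly every basal-like cell had Acta2: after thinning each cell to 2000 UMIs it was seen in 97.2% of 396 Ctrl cells and 95.5% of 398 CL cells, against 4.87% and 4.38% of luminal-like cells. Tagln stood at 5084 and 5091 CPM, with per-cell medians of 32 and 18 UMIs, and was seen in 94.9% and 91.0% of thinned cells. Tpm2 stood at 2441 and 2790 CPM and was seen in 90.4% and 91.0%. Cnn1, at 754 and 809 CPM, was seen in 61.6% and 62.1%. Actg2 was patchier, at 333 and 276 CPM, with UMIs in 29.8% and 24.1% of thinned cells.

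The motor genes lay between. Myh11 stood at 807 CPM in the library labelled Ctrl and 774 CPM in CL and was seen in 71.7% and 68.8% of thinned basal-like cells. Mylk, the kinase upstream of the motor, stood at 515 and 508 CPM and was seen in 54.5% and 57.0%.

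Oxtr, the receptor that starts contraction at milk let-down, was seen in the smallest share of basal-like cells among the 8. It stood at 110 CPM in basal-like cells of the library labelled Ctrl (99.5 to 121, 411 UMIs) and 90.7 CPM in CL (80.2 to 102, 268 UMIs). It was seen in 17.9% and 15.1% of thinned basal-like cells (42.5% of the Ctrl cells before thinning), against 0.151% and 0.266% of luminal-like cells, whose median depths before thinning were 12903 and 11839 UMIs. Of all Oxtr UMIs in retained cells, 89.9% in Ctrl and 76.1% in CL were in basal-like cells, and secretory-lineage luminal-like cells held 32 of 457 and 58 of 352 UMIs. The latter were spread over 2617 and 3904 cells, at 1.07 and 1.34 CPM, which is 25.0% and 30.9% of the level in empty droplets. In hormone-responsive luminal-like cells Oxtr stood at 2.67% and 5.18% of that level. In pericyte-like cells Oxtr had 0 UMIs in both libraries, a count that allows up to 9.61 and 9.24 CPM at 3 UMIs. Against that floor of 3 UMIs basal-like cells were at least 11.4-fold higher in Ctrl and at least 9.81-fold higher in CL.

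Basal-like cells usually showed several of these genes at once. After thinning to 2000 UMIs the commonest number was 6 of the 8, in 95 Ctrl and 105 CL cells. All 8 were seen in 15 cells of each library and none in 1 Ctrl and 3 CL cells. Across thinned basal-like cells the closest pair was Acta2 and Tagln, with Pearson's r of 0.69 in Ctrl (396 cells) and 0.74 in CL (398 cells). The loosest was Mylk with Oxtr, at 0.14 and 0.13. Cells of a library share their depth and their free RNA, and correlations with sparse genes are bounded by their low counts, so these values describe the cells and no more.

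**Figure D2:**
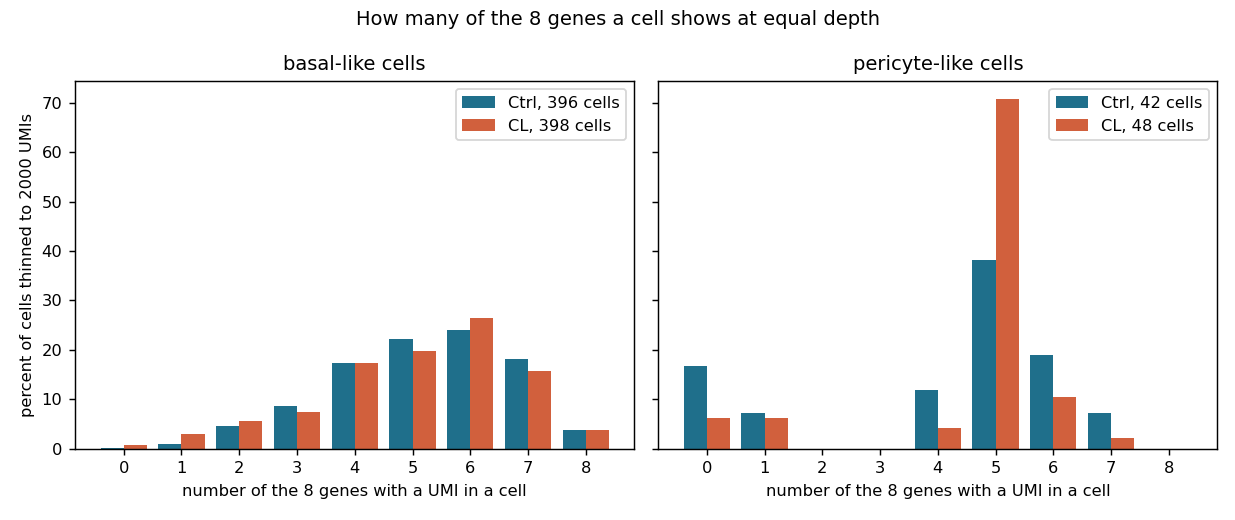
Percent of basal-like (left) and pericyte-like (right) cells by how many of the 8 genes they show after thinning to 2000 UMIs, for the libraries labelled Ctrl (blue) and CL (orange). Basal-like cells peak at 6 genes, and pericyte-like cells at 5, with a separate group of pericyte-like cells at 0 or 1.

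Between the libraries the contraction genes were first compared over all basal-like cells. None of the 8 was past 2-fold in either direction, while 2.11% of the 8328 genes with at least 50 UMIs in the class were. Acta2 was higher in the library labelled CL by 0.17 on the log2 scale (0.14 to 0.19), Tpm2 by 0.19 (0.15 to 0.24) and Cnn1 by 0.10 (0.02 to 0.18). Actg2 was lower in CL, at -0.27 (-0.40 to -0.14), and so was Oxtr, at -0.28 (-0.50 to -0.05). For Tagln (0.00), Mylk (-0.02, -0.12 to 0.08) and Myh11 (-0.06, -0.14 to 0.02) the interval included 0. The sum of the 8 differed by 0.09 (0.08 to 0.11), with a median of -0.01 over the 8 genes and of -0.07 over all genes tested. The direction of the sum depended on doublet removal: with the cells marked as doublets kept, it was -0.07. The directions of Acta2 and Cnn1 depended on it too, at -0.000975 and -0.054 with doublets kept.

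In pericyte-like cells 2 of the 7 genes with enough UMIs were past 2-fold, against 4.37% of 2036 genes. Cnn1 stood at 292 CPM in the library labelled Ctrl and 114 CPM in CL, a log2 difference of -1.36 (-1.95 to -0.79). Actg2 stood at 208 and 73.9 CPM, a difference of -1.49 (-2.23 to -0.80). Both values rest on few cells. The 91 Cnn1 UMIs in Ctrl came from 12 cells, 35 of them from a single cell. The 37 in CL came from 13 cells, with 10 UMIs from a single cell. The 65 Actg2 UMIs in Ctrl came from 7 cells, 32 of them from a single cell. The 24 in CL came from 4 cells, with 13 UMIs from a single cell. Without its richest cell, which was in Ctrl, Cnn1 differed by -0.72 (-1.36 to -0.09) and Actg2 by -0.58 (-1.40 to 0.22). Neither was then past 2-fold, but the richest CL cells, with 10 Cnn1 and 13 Actg2 UMIs, had been kept. With mitochondrial share limited to 5%, which left 16 pericyte-like cells in each library, Actg2 was higher in CL by 0.59 (-0.48 to 1.71) and Cnn1 differed by -0.24 (-1.19 to 0.70). Higher in CL were Tagln by 0.41 (7574 and 10069 CPM), Myh11 by 0.20 (1996 and 2289 CPM) and Acta2 by 0.19 (7846 and 8932 CPM). With doublets kept Myh11 was -0.23 and Acta2 -0.20, so that both were then lower in CL. For Mylk (1134 and 1297 CPM) and Tpm2 (3611 and 3810 CPM) the interval included 0. The sum of the 8 was higher by 0.23 (0.18 to 0.28) in CL, and was -0.17 where doublets were kept. Single pericyte markers such as Rgs5 also differed between the libraries, and the part of the class's make-up in these differences was not tested.

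**Figure D3:**
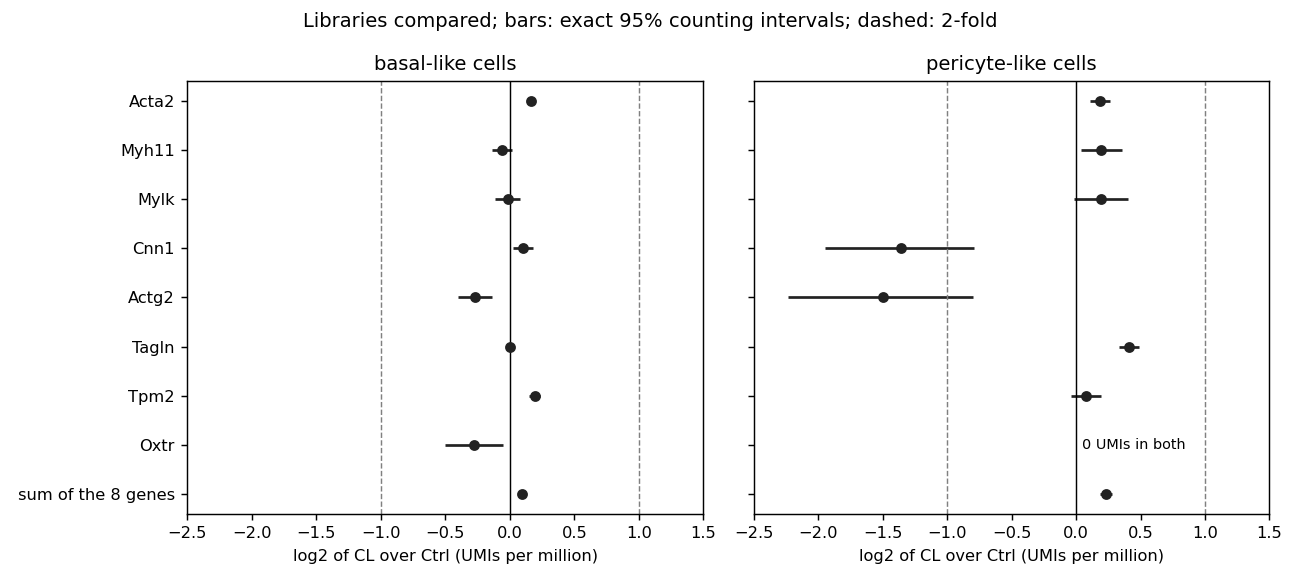
Log2 of the level in the library labelled CL over that in Ctrl for each of the 8 genes and their sum, in basal-like (left) and pericyte-like cells (right), with exact 95% counting intervals. Every basal-like value lies within 2-fold (dashed lines), and in pericyte-like cells Cnn1 (-1.36) and Actg2 (-1.49) lie beyond it.

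The pericyte-like class held a group of cells without the apparatus. Of the 100 pericyte-like cells 14 (6 in Ctrl and 8 in CL) had 0 UMIs of all 8 genes, although their median depths were 4825 and 1876 UMIs. In these cells pericyte markers summed to 514 and 291 CPM, against 3531 and 3066 CPM in the other pericyte-like cells. Fibroblast markers summed to 13468 and 4794 CPM in them and Schwann cell markers to 2125 and 9926 CPM. They were chosen by their values of the 8 genes, and their part in the differences between libraries was measured only by leaving them out, which moved the sum from 0.23 to 0.18.

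The basal-like and pericyte-like versions of the apparatus differed in their parts. In pericyte-like against basal-like cells 4 of the 8 genes were past 2-fold in the library labelled Ctrl, where 33.6% of 7090 genes were, and 5 of 8 in CL, where 33.8% of 6202 genes were. Against that background, counts among 8 genes are not read as particular to them. The motor and its kinase were higher in pericyte-like cells: Myh11 by 1.31 in Ctrl and 1.56 in CL on the log2 scale, and Mylk by 1.14 and 1.35. Tagln was higher by 0.58 and 0.98 and Tpm2 by 0.56 and 0.45, while Acta2 was close to level, at 0.16 and 0.18. Calponin and gamma-actin went the other way. Cnn1 was 2.59-fold and 7.10-fold lower in pericyte-like than in basal-like cells, and Actg2 was 1.60-fold and 3.74-fold lower. Oxtr was absent from the pericyte-like counts, as above.

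The wider apparatus was read from a list of 53 genes in 7 roles, of which the 8 are members. Between libraries, without the 8, 0 of 35 list genes with enough UMIs were past 2-fold in basal-like cells and 0 of 34 in pericyte-like cells, where 2 of 7 of the 8 had been, with median log2 differences of -0.03 and 0.05. Between the cell classes, genes were counted whose interval lay beyond 0 in both libraries. Of all 6110 genes with at least 50 UMIs in both, 14.5% were so higher in pericyte-like cells and 13.9% in basal-like cells. On the list 7 of 10 actin and thin filament genes were higher in pericyte-like cells and 2 in basal-like cells (Actg2 and Cnn1). Of the 7 genes of myosin and its kinase, 4 were higher in pericyte-like cells and 2 in basal-like cells. Among calcium and cGMP genes with that many UMIs 4 of 7 were higher in pericyte-like cells and none in basal-like cells, and among anchorage genes 5 of 8 and none.

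Named members of that list show how large the gap could be. Myl9, the regulatory light chain that Mylk phosphorylates, stood at 742 and 962 CPM in basal-like cells and at 3255 and 3656 CPM in pericyte-like cells. Myl6, the essential light chain, stood at 2467 and 2606 CPM against 4700 and 5529 CPM. Ppp1r14a, which encodes the phosphatase inhibitor CPI-17, stood at 34.2 and 44.3 CPM against 535 and 539 CPM, a 15.6-fold and 12.2-fold gap. Des, the muscle intermediate filament desmin, had 0 and 1 UMIs in basal-like cells and stood at 449 and 576 CPM in pericyte-like cells. Myocd, encoding the coactivator myocardin, had 4 and 0 UMIs in basal-like cells and stood at 115 and 120 CPM in pericyte-like cells. Srf, its partner, stood at 26.2 and 22.7 CPM in basal-like cells and at 19.2 and 27.7 CPM in pericyte-like cells, with intervals of the difference that included 0. Des and both of these regulators were chosen from the list after their values were seen, as was Avpr1a below.

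Of the 8 contraction-linked receptors on the list, only Oxtr reached 50 UMIs over both classes in each library. Oxtr had UMIs in basal-like and not in pericyte-like cells. Avpr1a, a vasopressin receptor and close relative of Oxtr, had 1 and 0 UMIs in basal-like cells and stood at 80.1 and 132 CPM in pericyte-like cells. The endothelin receptor Ednra stood at 2.14 and 2.71 CPM against 112 and 157 CPM, and Ednrb had 0 and 1 UMIs against 154 and 105 CPM.

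**Figure D4:**
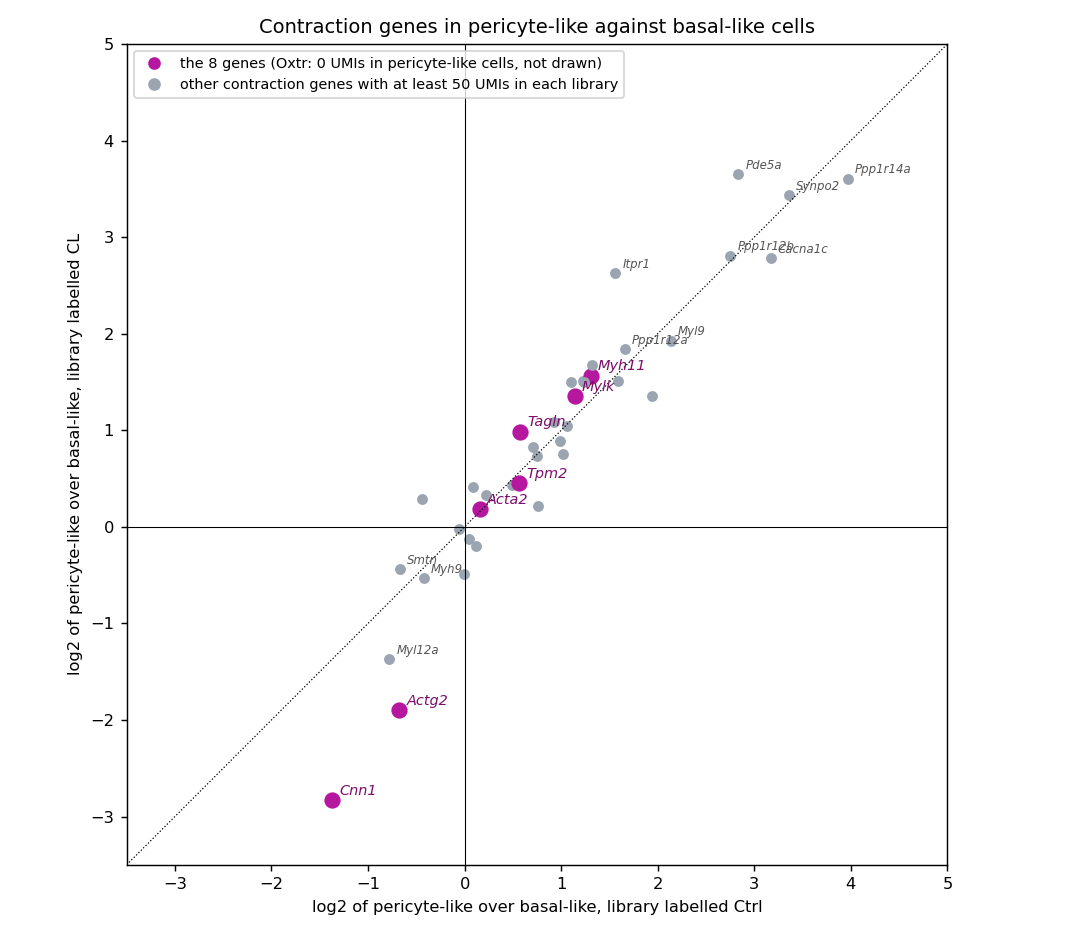
Log2 of the level in pericyte-like over basal-like cells for contraction genes with at least 50 UMIs in each library, in the library labelled Ctrl (horizontal) and in CL (vertical). Cnn1 and Actg2 lie towards basal-like cells in both libraries, Myh11 and Mylk towards pericyte-like cells, and Acta2 near 0.

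Basal-like cells did not carry the apparatus equally. Clustered again without contraction genes, they fell into 7 sub-clusters, which were examined after their values were seen and are given as description. The make-up of the class differed between the libraries. A sub-cluster led by Chil1 had 97 Ctrl and 44 CL cells, with 11689 and 18288 CPM of the 8 genes, and one led by Irf1 had 104 and 185 cells, with 18481 and 17825 CPM. The sub-cluster with the most Oxtr, led by Igfbp2 (56 Ctrl and 50 CL cells), held 28635 and 40324 CPM of the 8 genes, against 14428 and 14867 CPM in the other basal-like cells. Beside Oxtr, the other 7 genes were all higher in it in both libraries, by 0.64 to 1.63 on the log2 scale in Ctrl and by 0.98 to 2.12 in CL. Oxtr stood at 253 and 206 CPM in it against 77.1 and 73.3 CPM elsewhere, and Actg2 at 743 and 832 CPM against 239 and 192 CPM. Of all 5675 genes with enough UMIs, 8.60% were likewise higher there beyond counting error in both libraries. Since the sub-cluster was picked for its Oxtr, its Oxtr level is no finding. The basal markers did not move as one: Krt14 stood at 3780 and 4553 CPM in it against 5025 and 5079 CPM, Krt5 at 1312 and 1118 CPM against 944 and 1005 CPM, and Trp63, a basal transcription factor, at 134 and 82.2 CPM against 73.9 and 46.0 CPM. Its median depth was 11381 and 6716 UMIs per cell, above the 7862 and 5757 UMIs of the others.

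At the other end stood a sub-cluster led by Gbp2, an interferon-induced GTPase, and by the antigen presentation genes H2-Eb1, H2-Ab1 and Cd74. It held 2 Ctrl and 48 CL cells. In the library labelled CL these 48 cells held 5893 CPM of the 8 genes, 3.52-fold lower than the 20741 CPM of the other 394 basal-like cells. The 2 Ctrl cells held 20422 CPM (18361 to 22651), which was not low beside the 17070 CPM of all Ctrl basal-like cells. In CL all 8 were lower, from -1.48 for Tpm2 to -3.10 for Actg2 on the log2 scale, and Acta2 stood at 2775 against 8924 CPM. Of all 5769 genes with enough UMIs, 12.9% were lower there beyond counting error. Oxtr stood at 23.9 CPM (12 UMIs) against 104 CPM. The basal markers differed among themselves: Krt5 stood at 1174 against 988 CPM, Krt14 at 3730 against 5271 CPM, and Trp63 at 25.9 (13.8 to 44.3) against 55.8 CPM (46.9 to 66.0), which is 2.15-fold lower. Their median depth was 9631 UMIs per cell against 5435 UMIs. Cells marked as doublets had been removed, and the median doublet score of those left was 0.0264 in this sub-cluster, against 0.0136 to 0.0153 in the 4 larger basal-like sub-clusters. The leukocyte marker Ptprc had 1 UMI in these 48 cells and 1 UMI in the other 394. Gbp2 itself stood at 2914 against 140 CPM. With these cells left out, the sum of the 8 genes in basal-like cells was higher in CL by 0.28 in place of 0.09, and without the Igfbp2-led cells it was higher by 0.04.

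**Figure D5:**
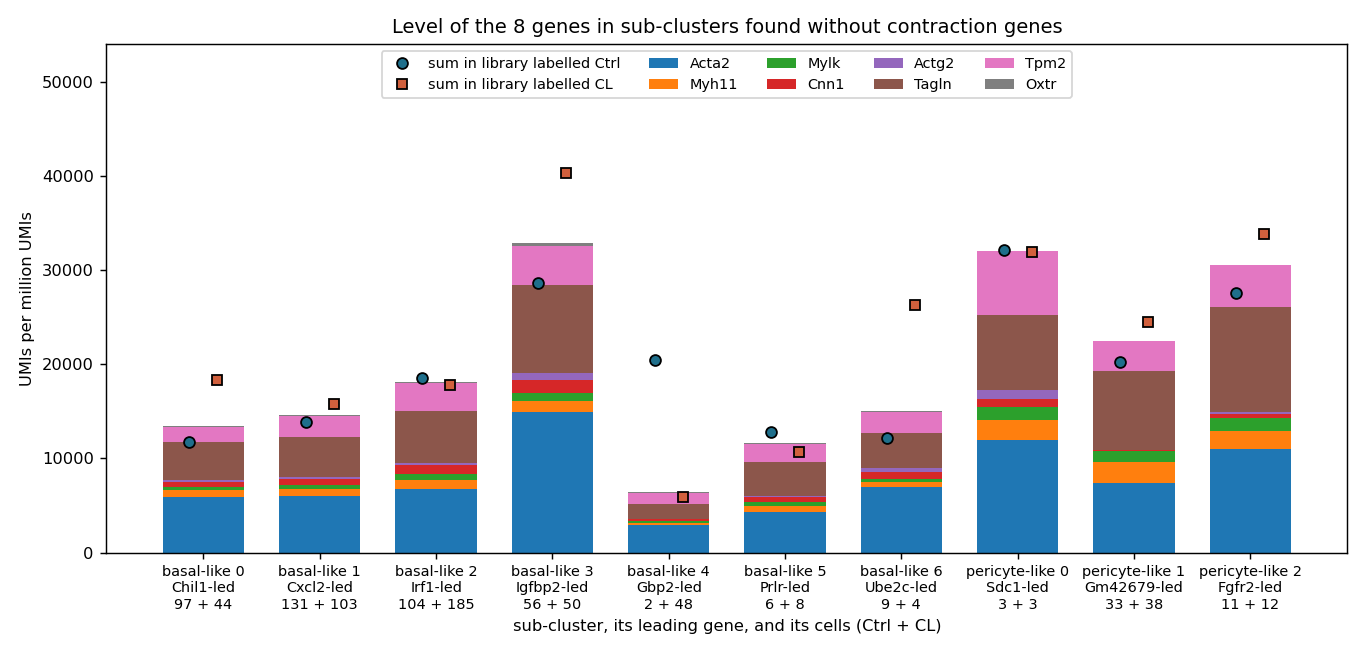
Stacked levels of the 8 genes in CPM in 7 basal-like and 3 pericyte-like sub-clusters over both libraries (bars), with the sum in each library (circles for Ctrl, squares for CL). The Igfbp2-led sub-cluster reaches 28635 CPM in Ctrl and 40324 CPM in CL, and the Gbp2-led one stands at 20422 CPM in Ctrl (2 cells) and 5893 CPM in CL (48 cells).

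The pericyte-like cells formed 3 sub-clusters. That of 6 cells held 845 CPM of Cnn1 and 1039 CPM of Actg2, that of 23 cells held 372 and 275 CPM, and the largest, of 71 cells, held 99.6 and 25.4 CPM. The Cnn1 UMIs were spread over all of them, with 35, 46 and 47 UMIs in 5, 5 and 15 cells in that order. Actg2 had 43, 34 and 12 UMIs, in 6, 2 and 3 cells. The median doublet score was 0.140 in the sub-cluster of 6 cells, against 0.0763 in that of 23 and 0.0710 in that of 71. Acta2 stood at 11908, 10987 and 7415 CPM in the same order.

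Genes with the pattern most like the sum of the 8 were ranked by Pearson's correlation over 42 units, each a cluster in a library, among 11268 genes. Outside the 8, the closest were Myl9 (0.95), Lmod1 (0.94), which encodes leiomodin, an actin filament nucleator, Ppp1r14a (0.91), Moxd1 (0.91) and Synm (0.88), which encodes the intermediate filament protein synemin. Then followed AY036118 (0.84), Aoc3 (0.83), Mcam (0.83), Sbspon (0.82) and Gm42418 (0.82). AY036118 and Gm42418 were not confined to the contractile classes. AY036118 stood at 621 and 615 CPM in luminal-like cells, against 2017 and 1979 CPM in basal-like cells. Gm42418 stood at 2449 and 2334 CPM against 8452 and 7500 CPM. Oxtr itself ranked 267, at 0.55. The units share libraries and depth, and the values are a description.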

How the data were processed

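The authors deposited raw UMI counts per gene and barcode for each library, with no normalization. The submitters' processing notes name Cell Ranger 2.1.1 and mm10, the file headers name a later Cell Ranger, and the aligner settings are not given in the sources used here. The deposited barcode lists do not index the matrix columns, so the 7217 (Ctrl) and 10555 (CL) barcodes with most UMIs were taken as candidate cells. Cells with at least 500 genes and at most 15% mitochondrial UMIs were kept. Doublets were marked with Scrublet in scanpy 1.11.5 (453 and 699 cells). Its automatic threshold had not worked in CL (0.576), so that of Ctrl (0.178) was used for both. Cells were clustered on 2000 variable genes, 30 components, 15 neighbours and Leiden resolution 1, without the contraction genes, giving classes from fixed markers by a scoring rule set after the data were seen. CPM were computed from summed counts, and intervals are Clopper-Pearson or Poisson. Shares of cells were read after thinning to 2000 UMIs. Genes with at least 50 UMIs in a class entered counts past 2-fold. The scripts were tested on simulated data. The text names all 8 genes, list genes past 2-fold between libraries (none beside the 8 was) or with most UMIs of their role, and the 10 genes most like the sum, and says where others were chosen after seeing values. The genes and lists were chosen with earlier results of these data known. Positions came from GENCODE M21, which held 32158 of 32285 gene identifiers. Alternatives varied the filters, doublets, clustering, naming, free RNA, scaling (TMM, edgeR 4.0.16) and the cells included. The counts of 1 role of the contraction list are not reported here.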

Additional observations from a re-analysis of the deposited data

Results flagged for a closer look

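With doublets removed, Cnn1 differed between the libraries in opposite directions in the 2 contractile classes. On the log2 scale it was 0.10 in basal-like cells and -1.36 in pericyte-like cells, CL over Ctrl. The difference between these values was not tested, since each group has 1 library. With doublets kept the values were -0.054 and -1.63, so that both were then lower in CL. The pericyte-like value was -0.72 without the cell richest in Cnn1, a Ctrl cell, and -0.24 with mitochondrial share at most 5%. The CL cell richest in Cnn1, with 10 of 37 UMIs, was kept.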

How the results depend on the processing

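No paired analysis was possible because each group has 1 library. The count of the 8 genes past 2-fold in basal-like cells stayed at 0 under all 15 alternatives. The log2 difference of their sum in basal-like cells (0.09) was 0.013 with mitochondrial share at most 5%, -0.074 with doublets kept, 0.16 with TMM factors, 0.11 when CPM were averaged over cells, and, with cells left out after seeing the data, 0.28 without the Gbp2-led cells and 0.043 without the Oxtr-richest ones. In pericyte-like cells the sum (0.23) was 0.40 at 5% mitochondrial share, 0.17 with no limit, -0.17 with doublets kept, 0.15 with contraction genes in the clustering, 0.29 with TMM, 0.31 when averaged over cells, and, chosen after seeing the data, 0.30 without the richest cell and 0.18 without cells at 0 UMIs. The count past 2-fold there (2) was 0 at 5% mitochondrial share and with no mitochondrial limit. It was also 0 without the Ctrl cell richest in Cnn1 or Actg2, with the richest CL cells kept. Naming each cell alone or averaging over cells gave 1. Over the alternatives Actg2 in pericyte-like cells (-1.49) ran from -3.34, with each cell named alone, to 0.59 at 5% mitochondrial share, and Cnn1 (-1.36) from -1.63 with doublets kept to -0.24 at 5%. With doublets kept Acta2 was -0.000975 and Cnn1 -0.054 in basal-like cells, and Acta2 -0.20 and Myh11 -0.23 in pericyte-like cells. The cause of these changes was not tested. Keeping doublets added cells, giving 449 and 511 basal-like and 51 and 64 pericyte-like cells. The basal-like share of UMIs (84.3% and 78.0%) was 83.5% and 77.1% with at least 200 genes, 87.7% and 79.0% at 5% mitochondrial share, 83.7% in Ctrl with no limit, 76.2% in CL with doublets kept, and 89.5% and 85.8% after subtraction of free RNA. The share of basal-like cells with a UMI moved with the depth they were thinned to: for Oxtr (17.9% and 15.1%) it was 10.1% and 8.60% at 1000 UMIs and 42.5% and 33.7% without thinning, and for Actg2 (29.8% and 24.1%) 20.8% and 17.4%, and 56.8% and 41.9%. Empty droplets of 20 to 100 UMIs held 813 and 588 CPM of the 8 genes in place of 1274 and 1415 CPM. No pericyte-like class formed with at least 1000 genes or at Leiden resolution 0.5, so those give no pericyte-like value. Of the 8 genes Oxtr had the fewest UMIs in basal-like cells, 411 and 268.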

Other observations

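Macrophage-like cells of the library labelled Ctrl held 650 CPM of the 8 genes (217 UMIs in 41 cells), against 24.7 CPM in the library labelled CL (12 UMIs in 41 cells). The 3 Oxtr UMIs among them were all in 1 Ctrl cell. Few cells carried them: the 96 Acta2 UMIs came from 7 Ctrl cells, the 29 Tpm2 UMIs from 3 and the 13 Myh11 UMIs from 1. Basal markers moved with them, at 300 CPM in macrophage-like cells of the library labelled Ctrl and 30.9 CPM in those of CL, and their part in the difference was not tested.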
